A study of Mus musculus with 38 samples.

Results

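Messenger RNA of 7 genes by which the heart takes fatty acids from lipoproteins in its capillaries was examined: Lpl, Gpihbp1, Lmf1, Angptl4, Vldlr, Fabp4 and Fabp5. They were chosen by name, and 7 of the 29564 genes in the deposited tables carried these symbols. All 7 had enough counts to be among the 13765 genes tested. The hearts came from wild-type mice of the C57BL6 strain, and each library was made from the left ventricle of 1 mouse. Non-failing mice given vehicle (non_failing, n = 8) were compared with mice in which a high-fat diet and L-NAME, a blocker of nitric oxide synthesis, had produced heart failure with preserved ejection fraction (HFpEF). The HFpEF mice received vehicle (HFpEF+Veh, n = 8), TYA-018, which inhibits HDAC6 (group HFpEF+TYA-018, n = 11), or empagliflozin, which inhibits SGLT2 (group HFpEF+SGLT2i, n = 11). Dosing was oral and daily, and the title of the series gives the treatment as 3 months long, while the methods of the study give a shorter time. The labels give no age, and their sex differs from that in the methods of the study, so neither entered a comparison.

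Lipoprotein lipase, the product of Lpl, cuts triglycerides in chylomicrons and very low density lipoproteins into fatty acids. In the heart it is made mainly by cardiomyocytes, folds in the endoplasmic reticulum with the help of the Lmf1 product, and is carried across the capillary wall and held there by GPIHBP1, a protein of capillary endothelial cells. ANGPTL4, a secreted protein, inactivates the enzyme, and its gene is induced by fatty acids through the PPAR family of nuclear receptors. VLDLR binds triglyceride-rich lipoproteins, and FABP4 and FABP5 carry fatty acids inside capillary endothelial cells.

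All 7 genes are annotated as protein coding on the GRCm38 mouse assembly, and no other annotated gene overlaps any of them. Lpl (ENSMUSG00000015568.16) lies on the plus strand at chr8:68880491-68907448 and Gpihbp1 (ENSMUSG00000022579.10) on the plus strand at chr15:75596628-75599481. Lmf1 (ENSMUSG00000002279.19) lies at chr17:25579085-25662826 on the plus strand, and Angptl4 (ENSMUSG00000002289.16) at chr17:33773750-33781830 on the minus strand. Vldlr (ENSMUSG00000024924.14) is at chr19:27216484-27254231 on the plus strand. The 2 binding protein genes lie on chromosome 3, with Fabp5 (ENSMUSG00000027533.10) at chr3:10012548-10016607 on the plus strand and Fabp4 (ENSMUSG00000062515.3) at chr3:10204088-10208576 on the minus strand.

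Fabp4 and Fabp5 are the only 2 members of one gene family here, so part of their coding sequences is shown, since it bears on how far reads from them can be told apart. Over the 399 aligned coding bases 243 were identical (60.9%), and the longest run of bases they shared was 12. A stretch of 150 bases from each, from the GENCODE transcripts on GRCm38, is printed 5′ to 3′ in the sense of the gene, with the 65 bases that differ between them in capitals. Counted from the first base of the start codon, it runs from base 4 to base 153 in Fabp4 and from base 10 to base 159 in Fabp5.
Fabp4: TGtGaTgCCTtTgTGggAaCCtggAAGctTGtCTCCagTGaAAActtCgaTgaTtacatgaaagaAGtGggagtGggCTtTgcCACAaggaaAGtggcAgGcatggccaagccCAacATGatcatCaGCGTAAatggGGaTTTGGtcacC
Fabp5: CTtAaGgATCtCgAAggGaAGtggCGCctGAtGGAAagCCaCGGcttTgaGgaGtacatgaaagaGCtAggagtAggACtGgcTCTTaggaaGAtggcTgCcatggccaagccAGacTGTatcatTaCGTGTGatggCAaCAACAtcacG
Fabp5 also shared at least 50 words of 31 bases with each of 5 other annotated genes, the largest number (260 of its 3592) with Gm6166, but no library held more than 4 counts for any of these genes, against at least 786 for Fabp5. Lpl shared 58 of its 10291 words with Maip1 and 50 with Gm45520, neither of which has a row in the tables, and its lowest count was 47484.

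The libraries held 21451631 to 59280407 counts (median 29527632), and the medians of the groups lay between 28763771 and 29840450. The vehicle library V2523 stood apart because of liver transcripts: albumin (Alb) was at 493 TPM (a level per transcript length, scaled to the same total in every library) in it and at most 9.49 TPM in the other vehicle hearts, 6.09 to 103 TPM in non_failing and at most 2.78 TPM under the drugs. Some vehicle values are therefore also given without it, and the calls of all 7 members were checked without it in the 6 comparisons. The quasi-likelihood test of edgeR was fitted over all 13765 genes, and calls were made at an adjusted p under 0.05. Scaling by library size alone in place of TMM factors moved the median log2 fold change of all genes between HFpEF+TYA-018 and HFpEF+Veh from -0.01 to -0.14, and turned its called genes from 115 higher and 151 lower to 25 higher and 1071 lower. In HFpEF+Veh against non_failing it moved the called genes from 243 higher and 190 lower to 379 higher and 98 lower.

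In non-failing hearts the 7 genes differed widely in level per length, from Fabp4 at 1554 ± 347 TPM (SD, n = 8) to Angptl4 at 2.20 ± 0.899 TPM (SD, n = 8). Lpl followed Fabp4 at 856 ± 150 TPM (SD, n = 8), then came Gpihbp1 at 127 ± 34.8, Fabp5 at 51.2 ± 11.1, Vldlr at 25.9 ± 5.85 and Lmf1 at 10.2 ± 1.19 TPM. Neighbours in this order did not overlap between libraries, except Fabp5 and Vldlr, which stood in this order in 7 of 8 libraries. The order was the same in HFpEF+Veh and HFpEF+TYA-018 by mean, but there the ranges of Lmf1 and Angptl4 overlapped, with Lmf1 above Angptl4 in 6 of 8 and 9 of 11 libraries. In HFpEF+SGLT2i the mean of Angptl4 was 1.11 times that of Lmf1, with Angptl4 the higher of the 2 in 5 of 11 libraries, so these neighbours did not differ beyond their spread. Fabp4 was 1.82 times as high as Lpl in non_failing and 2.80 to 3.25 times as high in the HFpEF groups.

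**Figure D1:**
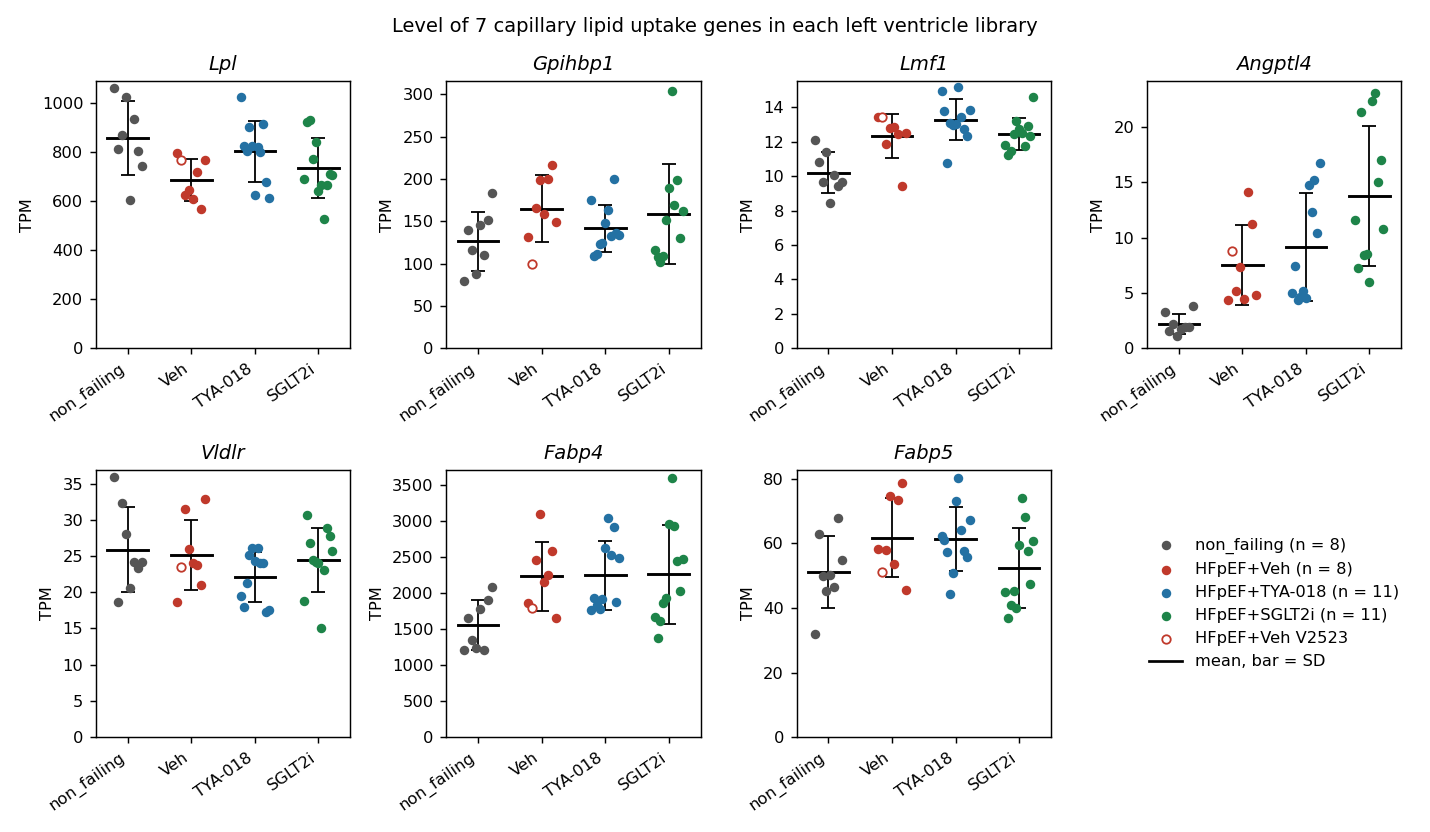
TPM of each of the 7 genes in every library, by group, with the mean as a line, the SD as a bar and the vehicle library V2523 as an open point; each axis starts at 0. All 30 HFpEF libraries lie above all 8 non_failing libraries for Angptl4 only, while for Lpl the HFpEF+Veh libraries lie at 566 to 794 TPM and the non_failing libraries at 604 to 1061 TPM.

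The first comparison, HFpEF+Veh with non_failing, asks what the disease model did to these genes. Angptl4 rose and Lpl fell, so that 2 of 7 members were called against 3.15% of all genes tested (1.77% called higher and 1.38% called lower). Angptl4, the inhibitor, had the largest fitted difference of the 7 genes, and Lpl, the enzyme, was the only member called lower in any of the 6 comparisons. The other 5 members were not called in this comparison.

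Lpl reached 604 TPM in the lowest, 841 in the median and 1061 in the highest non_failing library. In HFpEF+Veh it reached 566, 682 and 794 TPM, so the ranges overlapped, although 8 of 8 vehicle libraries lay below the non_failing mean in log2 CPM, the scale of the test, on which libraries are counted here throughout. The fold change was 0.768 (log2 -0.38, SE 0.10, adjusted p = 0.0300 by edgeR), and -0.39 (SE 0.11) without V2523, where it was still called. With each library left out in turn, 6 of 38 fits lost the call. Without V2501, V2504 and V2508 of the non_failing group the adjusted p was 0.0868, 0.0786 and 0.0629, and without V2527, V2528 and V2530 of the vehicle group 0.0611, 0.0554 and 0.0748. It was also lost with library size alone (-0.31, adjusted p = 0.0999), without a filter on low counts (adjusted p = 0.0701) and by limma on log2(TPM + 0.1) (adjusted p = 0.0588).

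Some cardiomyocyte genes fell in the same comparison. Of 8 markers of these cells 4 were called lower (1.38% of all genes were), and none higher, with a median log2 fold change of -0.36: the sarcomere genes Myl3 (-0.41, adjusted p = 0.00256), Tnnt2 (-0.43, adjusted p = 0.00459), Myl2 and Tnni3. The sum of the 8 markers was 22510 to 31716 TPM in non_failing and 21651 to 24725 TPM in HFpEF+Veh. The 4 genes called lower made up most of it. Over all libraries the medians of Myl2, Tnni3, Myl3 and Tnnt2 were 9762, 4348, 3987 and 3901 TPM, and the next, Pln, had 985 TPM. A ratio to this sum therefore sets Lpl mainly beside these 4 genes. Lpl per 1000 TPM of this sum was 30.2 ± 3.26 (SD, n = 8) in non_failing hearts and in HFpEF+Veh 29.4 ± 3.40 (SD, n = 8), a difference smaller than the spread. Against the same controls the same 4 genes were called lower in HFpEF+SGLT2i (2.99% of all genes were), with a median of -0.28 over the 8 markers, and Myl3 alone in HFpEF+TYA-018 (-0.31, adjusted p = 0.00814, where 3.39% of all genes were called lower), with a median of -0.17. Lpl per 1000 TPM of the sum was 34.2 ± 5.12 (SD, n = 11) with TYA-018 and 32.7 ± 5.17 (SD, n = 11) with SGLT2i, and its range overlapped those of the other groups. In bulk tissue fewer cells of a type and less RNA per cell cannot be told apart, and the part of these markers in the fall of Lpl was not tested.

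Under the drugs the mean of Lpl stood between those of these groups. HFpEF+TYA-018 libraries reached 611, 819 and 1024 TPM (lowest, median, highest) and HFpEF+SGLT2i libraries 528, 704 and 928 TPM. Against HFpEF+Veh the log2 difference of Lpl under TYA-018 was 0.32 (SE 0.10, 95% interval 0.12 to 0.51, adjusted p = 0.0728 by edgeR), with 10 of 11 libraries above the vehicle mean. It was called by DESeq2 (adjusted p = 0.0453) and without V2570 (0.35, adjusted p = 0.0378), the 1 fit of 38 to gain it by dropping a library. Under SGLT2i it was 0.18 (SE 0.10, interval -0.02 to 0.37, adjusted p = 0.532). Against non_failing neither drug group was called, with -0.06 (SE 0.10, adjusted p = 0.751) for TYA-018 and -0.20 (SE 0.10, adjusted p = 0.224) for SGLT2i.

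Lmf1, the maturation factor of the enzyme, was the steadiest of the 7 genes, with a coefficient of variation of 7.50% to 11.7% in the 4 groups. It reached 8.42, 9.87 and 12.1 TPM (lowest, median, highest) in non_failing and 9.43, 12.6 and 13.5 TPM in HFpEF+Veh. HFpEF+TYA-018 libraries reached 10.8, 13.1 and 15.2 TPM, and HFpEF+SGLT2i libraries 11.2, 12.5 and 14.6 TPM. All 4 ranges overlapped, but 23 of 30 HFpEF libraries lay above every non_failing library. Lmf1 rose against non_failing under TYA-018 (log2 0.42, SE 0.06, adjusted p = 2.42e-05) and under SGLT2i (0.27, SE 0.06, adjusted p = 0.00577), with 11 of 11 libraries above the non_failing mean in both. These calls held in all 38 fits without 1 library and under all 7 other settings (DESeq2, library size alone, no filter, limma with either pseudocount, a length offset, and 2 groups per fit).

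In HFpEF+Veh the difference of Lmf1 from non_failing was smaller (log2 0.16, SE 0.07, adjusted p = 0.234 by edgeR) and was called only by limma on TPM (0.26, adjusted p = 0.0318 with log2(TPM + 1), and adjusted p = 0.0399 with log2(TPM + 0.1)). Limma used no TMM factors, and its median of all genes in this comparison was 0.063 and 0.086 with these pseudocounts. Against HFpEF+Veh, Lmf1 rose under TYA-018 by log2 0.27 (SE 0.06, adjusted p = 0.0164), with 11 of 11 libraries above the vehicle mean, and by 0.28 (SE 0.07) without V2523. It was called in all 38 fits without 1 library, at most at an adjusted p of 0.0487 without V2530, the vehicle library in which Lmf1 was lowest. The call was lost with library size alone (0.14, adjusted p = 0.174), the setting under which the median of all genes fell to -0.14, by limma on log2(TPM + 1) (0.12, adjusted p = 0.311) and log2(TPM + 0.1) (0.12, adjusted p = 0.334), and with only the 2 groups in the fit (0.27, adjusted p = 0.0598). By limma the median of all genes was -0.084 and -0.115 here. Under SGLT2i the difference of Lmf1 from HFpEF+Veh was 0.11 (SE 0.06, adjusted p = 0.553 by edgeR).

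Gpihbp1, which anchors the enzyme in the capillary, overlapped in all 4 groups. It reached 79.5, 128 and 184 TPM (lowest, median, highest) in non_failing and 100.1, 162 and 216 TPM in HFpEF+Veh, where V2523 was lowest. Under TYA-018 it reached 109, 134 and 200 TPM, and under SGLT2i 102, 152 and 304 TPM. It was called in 0 of 6 comparisons by edgeR, DESeq2 or limma, and at an unadjusted p under 0.05 in 0 by edgeR. The widest difference was 0.29 on the log2 scale for HFpEF+SGLT2i against non_failing (SE 0.17, 95% interval -0.06 to 0.65, adjusted p = 0.361). In HFpEF+Veh against non_failing it was 0.26 (SE 0.19, interval -0.11 to 0.64), and 0.35 (SE 0.18) without V2523. The highest SGLT2i library, V2571, also had the highest sum of endothelial markers.

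Angptl4, the inhibitor of the enzyme, separated the non-failing from the HFpEF hearts. In non_failing it reached 1.15 TPM in the lowest, 1.94 in the median and 3.79 in the highest library (80 to 234 counts). HFpEF+Veh libraries reached 4.39, 6.26 and 14.1 TPM, HFpEF+TYA-018 libraries 4.39, 7.41 and 16.8 TPM, and HFpEF+SGLT2i libraries 6.02, 11.6 and 23.1 TPM (277 to 2160 counts over the 3 groups). All 30 HFpEF libraries lay above all 8 non_failing libraries. Such a separation, in this direction, was seen for 0.472% of genes with vehicle, 0.298% with TYA-018 and 0.262% with SGLT2i.

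Relative to non_failing, Angptl4 rose 3.24-fold in HFpEF+Veh (log2 1.70, SE 0.33, adjusted p = 0.00190), 4.30-fold in HFpEF+TYA-018 (log2 2.10, SE 0.32, adjusted p = 3.16e-05) and 6.43-fold in HFpEF+SGLT2i (log2 2.69, SE 0.33, adjusted p = 4.21e-07). These 3 comparisons share the same 8 control libraries. Without V2523 the first was 1.66 (SE 0.34). V2529, the vehicle library with the highest Angptl4, also had the highest sum of 5 erythroid markers, 41874 TPM against 5780 to 26436 TPM in the other vehicle libraries and 3786 to 8147 TPM in non_failing. All 5 had a fitted difference above 0 against non_failing in each HFpEF group, with log2 medians of 1.26 (vehicle), 1.07 (TYA-018) and 0.33 (SGLT2i) beside 0.011, 0.005 and 0.005 for all genes, and the median sum was 5841 TPM in non_failing and 9124, 12452 and 6646 TPM in these groups. By edgeR 0 of 5 were called with vehicle, and 4 were called higher without V2523, where 281 of 13801 genes were. With TYA-018 1 was called (Hbb-bs, 1.15, adjusted p = 0.0385, beside 4% of all genes), and Alas2 too without V2523, where 592 of 13801 genes were called higher. With SGLT2i 0 were called. In HFpEF+TYA-018 the library with the highest Angptl4, V2570, had the lowest erythroid sum of its group, 4811 TPM. In HFpEF+SGLT2i the library with the highest Angptl4, V2572, had 9826 TPM, and the highest sum was 16037 TPM in V2571. The part of these markers in the values of Angptl4 was not tested. Without V2529 the difference of Angptl4 was 1.51 (adjusted p = 0.00651). Angptl4 was called in all 3 in every one of the 38 fits without 1 library and under all 7 other settings, where the log2 values ran from 1.48 to 1.77, 1.70 to 2.10 and 2.30 to 2.68.

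Among HFpEF groups the spread of Angptl4 was wide, with a coefficient of variation of 46.0% to 53.3%. In HFpEF+TYA-018 6 libraries lay between 4.39 and 7.41 TPM and the other 5 between 10.4 and 16.8 TPM. The 6 had the lower mouse numbers, V2543 to V2550, and the other 5 the higher, V2551 to V2570. The labels name no batch, and the part of this order in the values was not tested. The difference between HFpEF+SGLT2i and HFpEF+Veh was 0.99 on the log2 scale (SE 0.30, 95% interval 0.39 to 1.59, adjusted p = 0.127 by edgeR), with 10 of 11 libraries above the vehicle mean, and 1.02 (SE 0.32) without V2523. It was not called in any of the 38 fits without 1 library (adjusted p from 0.0549 to 0.221). Under TYA-018 it was 0.41 (SE 0.29, interval -0.19 to 1.00, adjusted p = 0.487), and between the drugs -0.58 for TYA-018 minus SGLT2i (SE 0.27, interval -1.12 to -0.04, adjusted p = 0.338).

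Set against the enzyme it inhibits, Angptl4 stood at 2.51 TPM per 1000 TPM of Lpl in the median non_failing library (range 1.13 to 5.10). The median was 9.84 with vehicle (5.53 to 19.8), 9.01 with TYA-018 (4.86 to 27.4) and 16.9 with SGLT2i (7.91 to 43.7). The non_failing range overlapped with that of HFpEF+TYA-018 and with neither of the others. Lmf1 per 1000 TPM of Lpl was 12.1 ± 1.18 (SD, n = 8) in non_failing hearts, with a highest value of 13.9, and with vehicle 18.1 ± 1.72 (SD, n = 8), with a lowest value of 16.3. It was 16.9 ± 2.95 (SD, n = 11) and 17.5 ± 3.23 (SD, n = 11) under TYA-018 and SGLT2i, where the ranges overlapped with non_failing. These ratios are descriptions with no test.

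**Figure D2:**
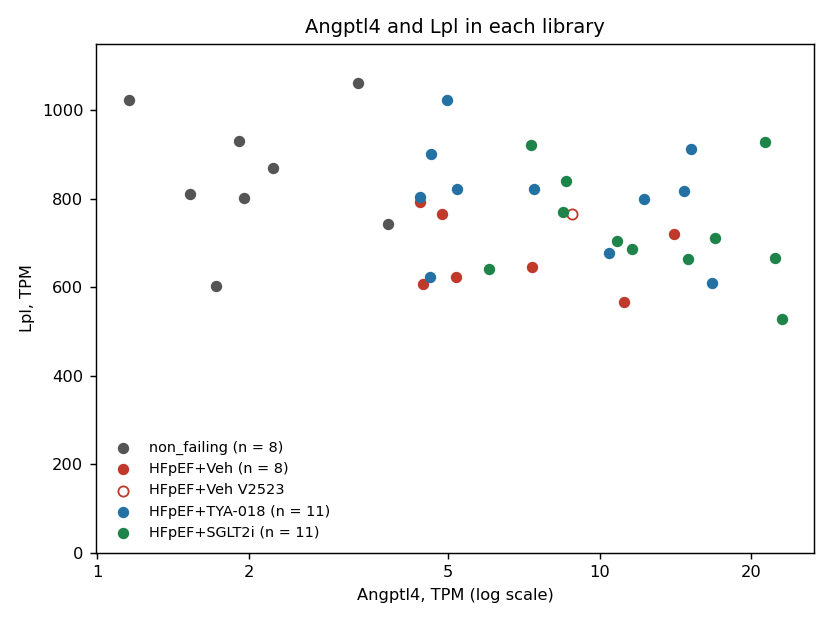
Angptl4 (TPM, log scale) against Lpl (TPM, linear scale) in each of the 38 libraries, coloured by group, with V2523 as an open point. Non-failing and HFpEF hearts separate along the Angptl4 axis, where non_failing libraries end at 3.79 TPM and HFpEF libraries begin at 4.39 TPM, while along the Lpl axis all groups overlap.

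Vldlr, the receptor, was called in 0 of 6 comparisons by edgeR, DESeq2 or limma, and at an unadjusted p under 0.05 in 0 by edgeR. It reached 18.6, 24.2 and 35.9 TPM (lowest, median, highest) in non_failing and 18.6, 23.9 and 32.8 TPM in HFpEF+Veh. Under TYA-018 it reached 17.2, 24.0 and 26.1 TPM, and under SGLT2i 15.0, 24.4 and 30.6 TPM. The widest difference was -0.17 on the log2 scale for HFpEF+TYA-018 against non_failing (SE 0.12, 95% interval -0.41 to 0.08). Of 9 other receptors and receptor partners tested, 1 was called higher and 1 lower against non_failing in HFpEF+Veh, where 1.77% and 1.38% of all genes were. The counts were 1 and 1 in HFpEF+TYA-018 (4% and 3.39% of all genes) and 2 and 1 in HFpEF+SGLT2i (3.46% and 2.99%). Lrp1, an endocytic receptor for lipoprotein remnants, was called higher in HFpEF+Veh (log2 0.38, SE 0.09, adjusted p = 0.0129) and in HFpEF+SGLT2i (0.30, SE 0.09, adjusted p = 0.0286) against non_failing. Sort1, which encodes the sorting receptor sortilin, was called lower against non_failing in HFpEF+Veh (-0.43, adjusted p = 0.0371), HFpEF+TYA-018 (-0.58, adjusted p = 0.000598) and HFpEF+SGLT2i (-0.38, adjusted p = 0.0308). Of the 5 calls of Lrp1 and Sort1 only that of Sort1 in HFpEF+TYA-018 held under all 8 other settings (the 7 above and the fit without V2523), while the other 4 held in 3 or 4 of them. Lrpap1, a chaperone of such receptors, was called higher in HFpEF+TYA-018 (0.18, adjusted p = 0.0252) and Mylip, which targets them for degradation, in HFpEF+SGLT2i (0.51, adjusted p = 0.0450), each in 3 of 8 other settings.

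Fabp4, the abundant fatty acid carrier of capillary endothelium, was higher by mean in each HFpEF group, and 15 of 30 HFpEF libraries lay above every non_failing library. It reached 1214, 1499 and 2082 TPM (lowest, median, highest) in non_failing and 1652, 2201 and 3091 TPM in HFpEF+Veh. Under TYA-018 it reached 1757, 1928 and 3047 TPM, and under SGLT2i 1369, 2027 and 3592 TPM, so all groups overlapped. In HFpEF+TYA-018 Fabp4 rose against non_failing by log2 0.57 (SE 0.16, adjusted p = 0.0266), with 11 of 11 libraries above the non_failing mean. In HFpEF+Veh the difference was 0.42 (SE 0.17, 95% interval 0.07 to 0.78, adjusted p = 0.204 by edgeR), and 0.48 (SE 0.18) without V2523. In HFpEF+SGLT2i it was 0.49 (SE 0.16, interval 0.16 to 0.82, adjusted p = 0.0658).

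The call of Fabp4 under TYA-018 was lost in 6 of 38 fits without 1 library: the adjusted p was 0.0546 without V2501, 0.0642 without V2503, 0.0563 without V2504, 0.0573 without V2508, 0.0525 without V2551 and 0.0571 without V2555. It was also lost by limma on log2(TPM + 1) (0.54, adjusted p = 0.0687) and on log2(TPM + 0.1) (0.54, adjusted p = 0.0732). The difference under SGLT2i was called by DESeq2 (adjusted p = 0.0375), with a length offset (adjusted p = 0.0397), and without V2507 (adjusted p = 0.0429), V2562 (adjusted p = 0.0282) or V2563 (adjusted p = 0.0474). Against HFpEF+Veh the log2 difference of Fabp4 was 0.14 (SE 0.16, interval -0.19 to 0.47) under TYA-018 and 0.06 (SE 0.16, interval -0.26 to 0.39) under SGLT2i, and between the drugs 0.08 (SE 0.15).

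Fabp5, its less abundant relative, was called in 0 of 6 comparisons, with an unadjusted p under 0.05 in 2 of them, and likewise in 0 by DESeq2 and by limma. It reached 31.9, 50.1 and 67.9 TPM (lowest, median, highest) in non_failing and 45.6, 58.2 and 78.7 TPM in HFpEF+Veh. Under TYA-018 it reached 44.4, 60.9 and 80.4 TPM, and under SGLT2i 36.8, 47.5 and 74.0 TPM. The widest difference was 0.32 on the log2 scale for HFpEF+TYA-018 against non_failing (SE 0.14, 95% interval 0.03 to 0.60, adjusted p = 0.167 by edgeR). Between the drugs it was 0.26 higher under TYA-018 (SE 0.13, interval 0.00 to 0.51, adjusted p = 0.375). Fabp4 stood at 30.8 ± 5.37 times Fabp5 per length (SD, n = 8) in non_failing and 36.3 ± 4.50 times (SD, n = 8) in HFpEF+Veh. It stood at 36.7 ± 5.85 times (SD, n = 11) in HFpEF+TYA-018 and 42.7 ± 4.38 times (SD, n = 11) in HFpEF+SGLT2i. The non_failing range, 26.2 to 38.1, overlapped with those of HFpEF+Veh (30.7 to 42.5), HFpEF+TYA-018 (28.2 to 50.5) and HFpEF+SGLT2i (37.1 to 49.7).

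Endothelial cells, which hold Gpihbp1, Fabp4 and Fabp5, were followed with 9 markers. In each of the 6 comparisons 0 of 9 were called by edgeR, DESeq2 or limma on log2(TPM + 1), with 2 at an unadjusted p under 0.05 in HFpEF+TYA-018 against HFpEF+Veh, 2 against HFpEF+SGLT2i and 0 elsewhere. Library size alone called 2 of them lower in HFpEF+TYA-018 against HFpEF+Veh, where it called 1071 of all 13765 genes lower. Their median log2 fold change was 0.08 in HFpEF+Veh, -0.10 in HFpEF+TYA-018 and 0.07 in HFpEF+SGLT2i against non_failing, beside 0.011, 0.005 and 0.005 for all genes. Of the 9 markers 7, 2 and 7 had a fitted difference above 0, in the same order. Their sum ran from 372 to 683 TPM in non_failing hearts, from 481 to 681 TPM with vehicle, from 363 to 568 TPM with TYA-018 and from 384 to 910 TPM with SGLT2i. Fabp4 per TPM of this sum was 2.96 ± 0.305 (SD, n = 8) in non_failing hearts. With vehicle it was 3.87 ± 0.501 (SD, n = 8), with TYA-018 4.55 ± 0.687 (SD, n = 11) and with SGLT2i 4.20 ± 0.567 (SD, n = 11). Its non_failing range, 2.50 to 3.36, lay below that of HFpEF+TYA-018, 3.46 to 5.39, and that of HFpEF+SGLT2i, 3.52 to 5.24, and overlapped with that of HFpEF+Veh, 3.07 to 4.54. Gpihbp1 per TPM of the sum was 0.240 ± 0.0409 (SD, n = 8) in non_failing and 0.286 to 0.290 by mean in the HFpEF groups, with overlapping ranges. These ratios were not tested, and how many of all genes separate in this way on such a ratio was not counted.

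**Figure D3:**
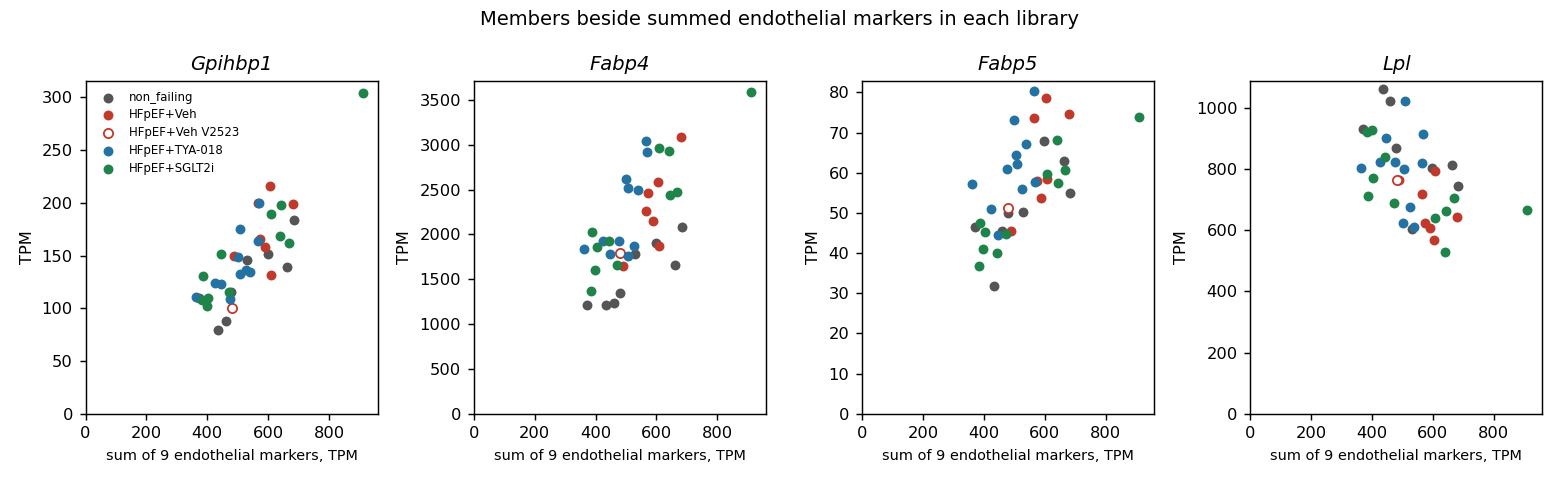
Gpihbp1, Fabp4, Fabp5 and Lpl (TPM) against the summed TPM of 9 endothelial markers in each of the 38 libraries, coloured by group, with V2523 as an open point; all axes start at 0. The first 3 genes rise with the sum and Lpl falls with it, and the HFpEF+SGLT2i library with the highest sum, 910 TPM, also holds the highest Gpihbp1 (304 TPM) and Fabp4 (3592 TPM).

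White and brown fat around the heart also express Lpl and Fabp4. Of 9 white adipocyte markers 7 did not pass the filter on low counts: Adipoq reached at most 0.307 TPM, Cfd 0.509, Plin1 0.0605 and Lep 0.0387 TPM in any library, with Plin1 at 0 in 31 and Lep at 0 in 27 of 38 libraries. The summed level of this list was 9.16 to 25.1 TPM in non_failing hearts, 14.8 to 26.9 with vehicle, 15.4 to 29.9 with TYA-018 and 16.1 to 27.3 TPM with SGLT2i, and Plin4, a gene also expressed in striated muscle, made up most of it, at 8.67 to 29.3 TPM. Plin4 was called higher against non_failing in HFpEF+TYA-018 (log2 0.55, adjusted p = 0.0129) and HFpEF+SGLT2i (0.54, adjusted p = 0.0148). Pck1, the other marker tested and also a liver gene, was called lower against non_failing under each drug and, without V2523, with vehicle too, while against HFpEF+Veh it was called lower under the drugs only with V2523 included. Of 6 brown adipocyte markers Ucp1 was at 0 in 28 libraries and at most 0.116 TPM, while Cidea, which mouse heart also expresses, was called higher in the 3 HFpEF groups (0.69, 0.96 and 0.90). The only other brown marker tested, Dio2, reached at most 1.16 TPM and was called higher against non_failing in HFpEF+Veh (log2 1.68, SE 0.36, adjusted p = 0.00529) and HFpEF+TYA-018 (1.14, SE 0.34, adjusted p = 0.0339), and was at 0.84 (adjusted p = 0.151) in HFpEF+SGLT2i. The part of these genes in the values of Lpl and Fabp4 was not tested. Macrophages also express Lpl, Fabp4 and Fabp5, and of 7 markers of these cells 0 were called in each of the 6 comparisons by edgeR, DESeq2 or limma, with 1 at an unadjusted p under 0.05 in HFpEF+Veh and 1 in HFpEF+TYA-018 against non_failing. Their sum ran from 74.4 to 141 TPM in non_failing hearts, from 114 to 190 TPM with vehicle, from 77.6 to 213 TPM with TYA-018 and from 104 to 180 TPM with SGLT2i. All 7 had a fitted difference above 0 against non_failing in each HFpEF group, with medians of 0.26, 0.20 and 0.21 on the log2 scale beside 0.011, 0.005 and 0.005 for all genes, and their part in the values of Fabp4 and Fabp5 was not tested. Of 6 fibroblast markers 2 were called higher in HFpEF+Veh against non_failing, as 1.77% of all genes were, Lum (0.86, adjusted p = 0.00190) and Pdgfra (0.33, adjusted p = 0.0123), and the sum of the 6 ran from 166 to 275 TPM in non_failing and from 245 to 582 TPM in HFpEF+Veh. Against the same controls 1 of the 6, Lum, was called higher in HFpEF+TYA-018 (0.54, adjusted p = 0.0268, with 4% of all genes), and in HFpEF+SGLT2i Pdgfra was called higher (0.35, adjusted p = 0.00211, with 3.46% of all genes) and Tcf21 lower (-0.43, adjusted p = 0.0324, with 2.99%).

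The remaining comparisons address the effect of each drug in HFpEF hearts, and whether one drug acts unlike the other on these genes. In the comparison of HFpEF+TYA-018 with HFpEF+Veh 1 of 7 members was called (Lmf1), against 1.93% of all genes. Between HFpEF+SGLT2i and HFpEF+Veh 0 of 7 were called, against 0.85% of all genes (117 genes, and 2 genes without V2523), with 1 (Angptl4) at an unadjusted p under 0.05. Between the drugs 0 of 7 were called, against 0% of all genes by edgeR (1821 genes at an unadjusted p under 0.05, and 185 called by DESeq2), with 3 (Lmf1, Angptl4 and Fabp5) at an unadjusted p under 0.05. DESeq2 called 2, 0 and 0 members in these 3 comparisons and limma on log2(TPM + 1) called 0 in each. Against non_failing 3 of 7 members were called in HFpEF+TYA-018 (Angptl4, Lmf1 and Fabp4), against 7.39% of all genes, and 2 of 7 in HFpEF+SGLT2i (Angptl4 and Lmf1), against 6.45%. Without V2523 the same number of members was called in each of the 6 comparisons.

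**Figure D4:**
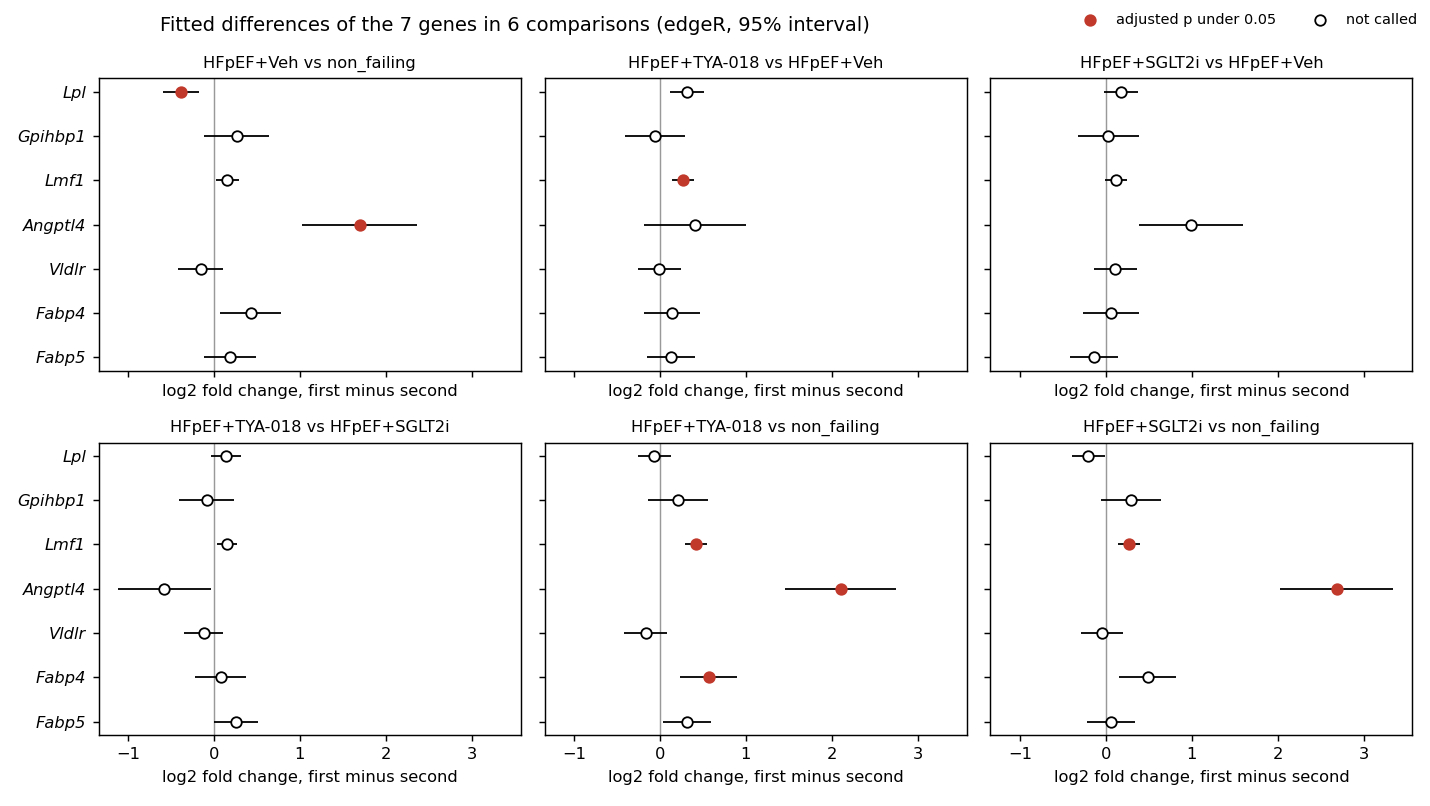
Fitted log2 fold changes of the 7 genes in the 6 comparisons, with 95% intervals as bars and filled points for genes called at an adjusted p under 0.05 (edgeR over 13765 genes). Angptl4 lies at 1.70, 2.10 and 2.69 in the 3 comparisons with non_failing, and the points of the other 6 genes lie between -0.38 and 0.57.

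Angptl4 is 1 of many genes that PPAR receptors switch on in muscle, so 15 other such genes of fatty acid handling were set beside it. In HFpEF+Veh against non_failing 7 of 15 were called higher and 0 lower, against 1.77% of all genes called higher, and their median log2 fold change was 0.40 beside 0.01 for all genes. Among those with the smallest p were Acot2 (0.81, SE 0.14, adjusted p = 0.000486) and Acot1 (1.44, SE 0.32, adjusted p = 0.00620), which split fatty acyl-CoA, and Cpt1b, which admits fatty acids to mitochondria (0.44, SE 0.08, adjusted p = 0.000827). Without V2523 5 of 15 were called higher, as were 281 of 13801 genes. Against non_failing 13 of 15 were called higher in HFpEF+TYA-018, where 4% of all genes were, and 13 of 15 in HFpEF+SGLT2i, where 3.46% were, with medians of 0.63 and 0.72. With library size alone 10 were called in HFpEF+TYA-018 and 13 in HFpEF+SGLT2i, where 258 and 315 of all 13765 genes were called higher.

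Against HFpEF+Veh 1 of 15 was called higher under TYA-018 (0.835% of all genes) and 2 of 15 under SGLT2i (0.131% of all genes), 0 were called lower, and the gene called under both was Ucp3, a mitochondrial uncoupling protein of muscle. Ucp3 reached 12.5 ± 2.34 TPM (SD, n = 8) with vehicle, 19.6 ± 5.36 TPM (SD, n = 11) with TYA-018 (log2 0.79, SE 0.21, adjusted p = 0.0370) and 26.3 ± 6.71 TPM (SD, n = 11) with SGLT2i (1.17, SE 0.21, adjusted p = 0.00129). Pdk4, which restrains glucose oxidation, rose under SGLT2i (0.86, SE 0.18, adjusted p = 0.00865) and was at 0.24 (SE 0.18, adjusted p = 0.507) under TYA-018. By limma with either pseudocount none of these 3 calls was made, that of Pdk4 was also lost with 2 groups in the fit (0.85, adjusted p = 0.167), and that of Ucp3 under TYA-018 with a length offset (0.77, adjusted p = 0.0529). Between the drugs 0 of 15 were called by edgeR, with 6 at an unadjusted p under 0.05, 2 called by DESeq2, and a median of -0.20 for TYA-018 minus SGLT2i. Plin2, which coats lipid droplets, rose against non_failing by 0.43 (adjusted p = 0.00704), 0.65 (adjusted p = 5.60e-06) and 0.72 (adjusted p = 8.41e-07) with vehicle, TYA-018 and SGLT2i. The first of these calls was lost by limma on log2(TPM + 1) (adjusted p = 0.0551) and log2(TPM + 0.1) (adjusted p = 0.0617) and with a length offset (0.29, adjusted p = 0.130). Of the 6 receptors themselves, 1 was called higher against non_failing in HFpEF+Veh, 1 in HFpEF+TYA-018 and 2 in HFpEF+SGLT2i. Of all genes 1.77%, 4% and 3.46% were called higher. The shared partner Rxrb was called in all 3 HFpEF groups (0.24, 0.28 and 0.33 on the log2 scale) and Rxra in HFpEF+SGLT2i (0.18). Neither Ppara, Ppard nor Pparg was called in any of these comparisons. The call of Rxra held in 3 of 8 other settings, and that of Rxrb in HFpEF+TYA-018 was lost by limma with either pseudocount.

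Genes that carry fatty acids onward were examined as a list of 15, of which 13 could be tested. Against non_failing 1 was called higher in HFpEF+Veh, 1 in HFpEF+TYA-018 and 2 in HFpEF+SGLT2i, where 1.77%, 4% and 3.46% of all genes were. The liver carrier Fabp1 was called lower under each drug, as were 3.39% (TYA-018) and 2.99% (SGLT2i) of all genes. Fabp3, the cytosolic carrier of cardiomyocytes, was at 2488 ± 406 TPM (SD, n = 8) in non_failing hearts and with vehicle at 3832 ± 629 TPM (SD, n = 8). It rose by log2 0.52 (SE 0.11, adjusted p = 0.00529) in HFpEF+Veh, 0.76 (SE 0.11, adjusted p = 7.25e-06) in HFpEF+TYA-018 and 0.68 (SE 0.11, adjusted p = 4.53e-05) in HFpEF+SGLT2i against non_failing, and all 3 calls held under all 8 other settings. Cd36, the fatty acid translocase, rose in HFpEF+SGLT2i (0.45, SE 0.10, adjusted p = 0.00441), with 11 of 11 libraries above the non_failing mean, and was at 0.30 (adjusted p = 0.146) in HFpEF+Veh and 0.28 (adjusted p = 0.0886) in HFpEF+TYA-018. Vegfb, a growth factor tied to endothelial fatty acid uptake, was called higher in HFpEF+TYA-018 against HFpEF+Veh (0.36, SE 0.10, adjusted p = 0.0463), in 4 of 8 other settings.

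Of 18 other partners and modulators of lipoprotein lipase, 14 could be tested, and the genes called were those of apolipoproteins made mainly in the liver. In HFpEF+Veh against non_failing 0 of 14 were called by edgeR, with 1 at an unadjusted p under 0.05 and 1 called by DESeq2. Apoc1, Apoa5 and Apoc3, 3 of the 14, were called lower under each drug, both against HFpEF+Veh and against non_failing. Of all 13765 genes 151 (TYA-018) and 99 (SGLT2i) were called lower against HFpEF+Veh, and 3.39% and 2.99% against non_failing. Apoc1 was at 149 TPM in V2523 and at 0.209 to 6.72 TPM in the other vehicle libraries, 3.20 to 57.8 TPM in non_failing and at most 1.07 TPM under the drugs. Apoc3 was at 24.0 TPM in V2523, at most 2.03 TPM in the other vehicle hearts and 1.02 to 24.4 TPM in non_failing. Without V2523 none of the 3 was called in either drug group against HFpEF+Veh, and all 3 were called lower in HFpEF+Veh against non_failing (339 of 13801 genes were). The same held for Fabp1 (74.1 TPM in V2523 and at most 3.68 TPM in the other vehicle libraries). Albumin moved with them, and its part in these values was not tested. Hspg2, which encodes the heparan sulfate proteoglycan perlecan, was at 0.34 on the log2 scale in HFpEF+Veh against non_failing (adjusted p = 0.120) and was called higher there without V2523.

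Across the 38 libraries, with group means removed and on a log2 scale, the members fell into patterns that are given as descriptions, since libraries share depth and composition. Fabp4 and Fabp5 varied together (Pearson r = 0.884, Spearman rho = 0.902, and r = 0.856 without the 2 libraries farthest from the median), as did Gpihbp1 and Fabp4 (r = 0.814, rho = 0.814, and r = 0.779). Lpl ran against Fabp5 (r = -0.751, rho = -0.761, and r = -0.754) and against Fabp4 (r = -0.708, rho = -0.727, and r = -0.704). Lpl and its inhibitor Angptl4 were only weakly related (r = -0.217, rho = -0.209, and r = -0.053). With the summed endothelial markers r was 0.766 for Gpihbp1, 0.739 for Fabp4, 0.716 for Fabp5, 0.281 for Angptl4, -0.099 for Lmf1, -0.607 for Vldlr and -0.623 for Lpl.

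The tested genes most like each member by the same measure, among 10923 with an average log2 CPM of at least 1, were found next. For Gpihbp1 they were Esam, a junction protein of endothelial cells (r = 0.933), Sox17, an endothelial transcription factor (r = 0.912), and Rbp7 (r = 0.906). Fabp4 and Fabp5 shared Nmt2 as the nearest gene (r = 0.919 and 0.928), followed by Zdhhc20 (r = 0.903) and Lbr (r = 0.895) for Fabp4 and the endothelial genes Icam2 (r = 0.899) and Emcn (r = 0.892) for Fabp5. Lpl was nearest to Acadsb, a mitochondrial dehydrogenase (r = 0.875), Cd99l2 (r = 0.862) and Bzw2 (r = 0.860). Angptl4 was nearest to Plin2 (r = 0.692), Mdfic (r = 0.642) and Foxo1 (r = 0.627), Vldlr to Slc20a2 (r = 0.775), Klhl24 (r = 0.760) and Pdp2 (r = 0.752), and Lmf1 to Csnk2b (r = 0.707), 2310036O22Rik (r = 0.691) and Trappc1 (r = 0.688). Without the 2 libraries farthest from the median of the member these values ran from 0.526 for Lmf1 and Trappc1 to 0.910 for Fabp5 and Nmt2.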

How the data were processed

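The authors trimmed reads with fastp, quantified mouse transcripts of GRCm38 with salmon (1.6.0 in the submitters' processing notes, which name a human build) and collapsed them to genes with tximport. Expected counts, as deposited, are estimated reads per gene, the deposited TPM values are scaled by the authors over all transcripts of a library, and a deposited table of other values holds effective lengths in bases. Positions and coding sequences came from GENCODE M21, also on GRCm38.

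Expected counts were rounded, filtered with filterByExpr and scaled with TMM factors. The quasi-likelihood F test of edgeR 4.0.16 (R 4.3.3, two-sided) was fitted in 1 model with 4 groups, and p-values were adjusted by the Benjamini-Hochberg method over 13765 genes. Standard errors were obtained from log2 fold changes and F values. Libraries above or below a group mean were counted in log2 CPM (TMM, prior count 2), and overlap of groups in TPM. Alternatives were DESeq2 1.42.0, library size alone, no filter, limma 3.58.1 on log2(TPM + 1) and log2(TPM + 0.1), a length offset, 2 groups per fit, TPM rescaled without mitochondrially encoded genes, and leaving out each library. The fits were tested on simulated counts. Unmapped columns numbered 0.

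Members, marker and pathway lists, and the vehicle check without V2523 were chosen with earlier results of these data known. Beside the members, called list genes (up to 4 per list and comparison, by p), markers and the 3 genes most like each member are named, except 1 list gene that is not reported here. Each library is 1 mouse.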

Additional observations from a re-analysis of the deposited data

Results flagged for a closer look

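Lmf1 in the vehicle library V2530 was at 9.43 TPM, while the other 7 HFpEF+Veh libraries lay between 11.9 and 13.5 TPM. V2530 also had the highest sum of fibroblast markers in its group (582 TPM, median 306) and the highest sum of macrophage markers (190 TPM), and their part in this value was not tested. The gap of Lmf1 to the nearest library was 0.611 of the range of the group, above the critical value of Dixon's test for 8 samples. Values were examined this way in 14 groups (7 genes in non_failing and HFpEF+Veh, the groups small enough), and 1 was picked out, while chance alone picks out about 1 in 20. Without V2530 the log2 difference of Lmf1 between HFpEF+TYA-018 and HFpEF+Veh was 0.22 (adjusted p = 0.0487 by edgeR), against 0.27 with it.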

How the results depend on the processing

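No paired analysis was possible because the mouse numbers in the labels differ between all 4 groups. In HFpEF+Veh against non_failing, library size alone and no filter each called 1 member. For HFpEF+TYA-018 against HFpEF+Veh, the genes called numbered 402 by DESeq2, 1096 with library size alone, 618 without a filter, 38 and 41 by limma (pseudocounts 1 and 0.1) and 58 with 2 groups in the fit, and the members 2, 0, 1, 0, 0 and 0. For HFpEF+SGLT2i against HFpEF+Veh the genes called numbered 457 without a filter, 0 by limma with either pseudocount, 3 with 2 groups in the fit and 2 without V2523. Between the drugs DESeq2 called 185 genes and a length offset 5. Against non_failing limma called 612 and 623 genes in HFpEF+TYA-018 and 521 and 530 in HFpEF+SGLT2i. Leaving out 1 library, the genes called ran from 289 (V2504) to 620 (V2523) in HFpEF+Veh against non_failing, 167 (V2530) to 393 (V2570) and 2 (V2523) to 175 (V2532) in HFpEF+TYA-018 and HFpEF+SGLT2i against HFpEF+Veh, 0 to 17 (V2570) between the drugs, and 736 to 1154 and 701 to 988 in HFpEF+TYA-018 and HFpEF+SGLT2i against non_failing. The members called ran from 1 to 2, 1 to 2, 0 to 0, 0 to 0, 2 to 3 and 2 to 3 in the same order.

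Signs turned only for differences that were not called. Against HFpEF+Veh under SGLT2i, Gpihbp1 turned to -0.0384 with library size alone, -0.0771 and -0.0775 by limma and -0.0540 without V2523, Vldlr to -0.0171 and -0.0173 by limma, and Fabp4 to -0.0084 with library size alone, while Fabp5 under TYA-018 turned to -0.0044 with library size alone. Leaving out 1 library other than V2523, Gpihbp1 ran from -0.1207 to 0.0129 and Vldlr from -0.0613 to 0.0627 for TYA-018 against HFpEF+Veh. Gpihbp1 ran from -0.1057 to 0.0984 and Fabp4 from -0.0198 to 0.1224 for SGLT2i against HFpEF+Veh, Gpihbp1 from -0.1479 to 0.0508 between the drugs, and Vldlr from -0.1017 to 0.0276 and Fabp5 from -0.0169 to 0.1186 for SGLT2i against non_failing. The cause of these shifts was not tested. TPM rescaled without mitochondrially encoded genes, which took 32.9% to 44.6% of TPM, raised all 28 group means by more than 1 SD. TPM files hold no depth, and Angptl4, at 80 to 234 counts in non_failing, had the lowest counts of the 7 genes.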
